A study of Mus musculus with 4 samples.

Results

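miR-22 and miR-378 (probes mmu-miR-22 and mmu-miR-378) are 2 of the 696 microRNAs measured on arrays of mouse mandibular molar tooth germs, the embryonic buds from which the lower molars grow. They were chosen by their signals on these same arrays, which were higher at each successive stage, and for lying outside the known families of such microRNAs, such as let-7. The rise itself is therefore a description and carries no test. Untreated embryos of the ICR strain, an outbred laboratory mouse, were collected on days 11, 12, 14 and 16 of embryonic life, here E11, E12, E14 and E16, and total RNA of the germs was hybridised to 1 Agilent array per stage. Over these days the tooth passes from a thickened epithelium through bud and cap to bell. With 1 array per stage no difference has a replicate check, and the sources used here do not say how many embryos or litters an array represents. Errors after ± are the measurement errors stated for each signal on its array, or combinations of them, and say nothing of how embryos differ.

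A microRNA is a short RNA cut from a hairpin precursor. Loaded into an Argonaute protein, it pairs with messenger RNAs mainly through its seed, bases 2 to 8 from its 5′ end, and lowers their translation and stability. Usually one arm of the hairpin accumulates and the other, marked with an asterisk in the older names used on these arrays, is scarce. miR-22 is abundant in heart and skeletal muscle, and mice lacking it have an altered response of the heart to stress. In the mouse, miR-378 lies within Ppargc1b, the gene of the metabolic coactivator PGC-1β, and mice lacking both arms of miR-378 have altered energy metabolism.

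The miR-22 precursor is shown because 1 of its arms carries the signal described here and the other was not detected. It lies on the plus strand of chromosome 11, chr11:75463716-75463810, within the long noncoding RNA gene Mir22hg (RefSeq, GRCm38.p6). The 95 bases of the hairpin follow, with the 5′ arm (bases 19 to 40, miR-22*) and the 3′ arm (bases 57 to 78, miR-22) in capitals.
Mir22 hairpin: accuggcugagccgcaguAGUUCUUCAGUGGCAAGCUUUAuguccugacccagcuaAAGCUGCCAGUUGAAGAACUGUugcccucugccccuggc
The mature arms are given next with their seeds in capitals; the assignment of the probe names to the 3′ and 5′ arms follows the miRNA naming history and not the deposited files.
miR-22 (3′ arm): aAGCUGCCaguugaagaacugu
miR-22* (5′ arm): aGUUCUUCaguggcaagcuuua
Of the 1679 mature names in the RefSeq table, miR-22 was the 1 name with its seed. The related miR-378b, miR-378c and miR-378d were not analysed here, and pairing of those RNAs with the miR-378 probe was not tested.

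mmu-miR-22 had a deposited signal of 17.6 ± 3.86 at E11, 63.0 ± 7.89 at E12, 110.3 ± 9.62 at E14 and 275 ± 21.0 at E16. Each value lay above the one before by more than their stated errors. mmu-miR-378 had signals of 15.6 ± 3.76 at E11, 58.7 ± 7.76 at E12, 102.9 ± 8.96 at E14 and 133.8 ± 11.4 at E16. It too was higher at each stage than at the one before, but its signals at E14 and E16 were closer than those of miR-22. These signals are not scaled between arrays. Without scaling, 59 of the 197 microRNAs detected on all arrays were higher at every step. Both microRNAs were flagged as detected on every array. At E11 they were weak, at 3.20 times (miR-22) and 2.85 times (miR-378) the lowest detected signal of that array, and their errors were 22.0% and 24.1% of the signal. By E16 the errors were 7.66% and 8.54%. The probes of the opposite arms, miR-22* and miR-378*, were not detected on any of the 4 arrays.

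**Figure D1:**
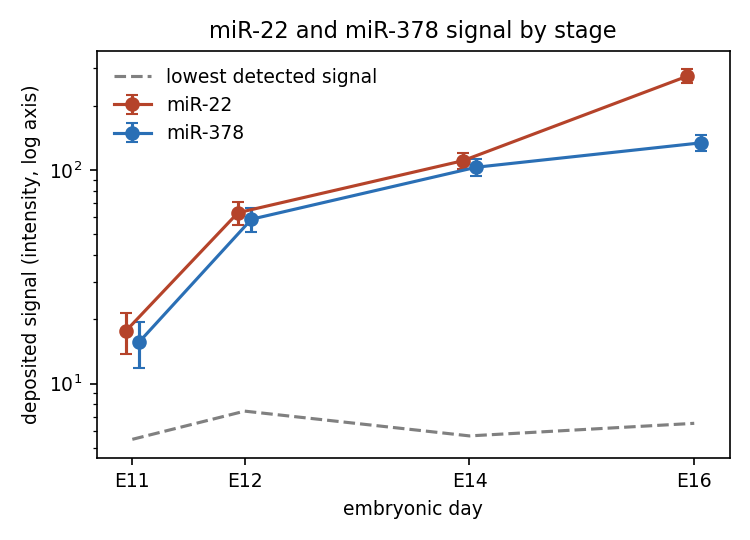
Deposited signals (intensity, log axis) of miR-22 and miR-378 against embryonic day, with the stated error of each signal as bars and the lowest detected signal of each array as a dashed line. The points of miR-22 and miR-378 lie close together through E14 and apart at E16, at 275 against 133.8.

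The arrays as a whole grew brighter. Detected microRNAs numbered 209, 221, 249 and 250 at E11, E12, E14 and E16, with 197 detected on all 4 arrays. The 75th percentile of those 197 was 0.67, 1.08 and 1.44 higher on the log2 scale at E12, E14 and E16 than at E11. Signals were therefore read on the log2 scale relative to that percentile (the main scaling), and a microRNA was called higher at a later stage if it was flagged as detected in the pair of stages and at least 2-fold up. On this scale the median of all 205 microRNAs detected at both E16 and E11 was -0.74, and 71 of them (34.6%) were higher by any amount, 28 (13.7%) by at least 2-fold. At least 2-fold lower were 77 (37.6%). On the unscaled signals the median of these 205 was 0.69. RNA came from whole germs, so more cells of a type and more RNA per cell cannot be told apart.

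Relative to the percentile, miR-22 stood at -3.83, -2.66, -2.26 and -1.30 on the log2 scale at E11, E12, E14 and E16. Its level at E16 was 5.78-fold that at E11 (log2 2.53 ± 0.34). This placed it 4th from the top of the 205 microRNAs. miR-378 stood at -4.00, -2.76, -2.36 and -2.34 at the same stages. Its level at E16 was 3.17-fold that at E11 (log2 1.66 ± 0.37), 15th of 205. Against the median of all microRNAs, the difference was 3.28 for miR-22 and 2.41 for miR-378. A constant shift of an array cannot change these 2 distances. Under quantile normalization, which can, they were 2.80 and 2.18. In all, 8 scalings of the arrays were compared, among them the median, quantile normalization, no scaling and the authors' own values. The authors' values matched quantile normalization to within 0.1%, so they are not separate scalings in the tallies of 8.

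From E11 to E12, 1 day, miR-22 and miR-378 differed in their change by less than the error. miR-22 was 2.26-fold higher at E12 (log2 1.17 ± 0.36) and miR-378 2.36-fold higher (1.24 ± 0.40), ranks 14 and 10 of 201. In this step 39.8% of microRNAs were higher by any amount and 9.45% by at least 2-fold, around a median of -0.20. Both differences were over 3 times their combined error (3.22 and 3.13). The 2-fold line is less secure, since miR-22 passed it under 4 of the 8 scalings and miR-378 under 6.

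From E12 to E14, 2 days, the pair again differed by less than the error, and both changed less. The log2 difference was 0.40 ± 0.22 for miR-22 and 0.40 ± 0.23 for miR-378, ranks 48 and 47 of 212. Each difference was under 2 times its error (1.81 and 1.75). Neither passed 2-fold under any of the 8 scalings, where 12.7% of all microRNAs did under the main one and 32.1% were higher by any amount. The median of all microRNAs fell by 0.40 in this step, so both members lay 0.80 above it.

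From E14 to E16, 2 days, they parted. miR-22 was 1.95-fold higher at E16 (log2 0.96 ± 0.17), rank 19 of 231 and 5.73 times its error. miR-378 was at 0.02 ± 0.18, rank 96 of 231 and close to the median of all microRNAs, -0.06. At least 2-fold higher in this step were 7.36% of microRNAs, and neither member was among them; 44.6% were higher by any amount. miR-22 passed 2-fold in this step under 4 of the 8 scalings and miR-378 under 0. The value of miR-378 turned to -0.41 when the percentile was taken over the 176 microRNAs, of the 197, that have a miRNA gene in the RefSeq table, and it was positive under the 7 other scalings. Its ratio to the combined error was -2.33 there and 2.16 without scaling (0.38), so its direction depended on the scaling. Under the main scaling the last step of miR-378 was well within its error, while miR-22 was higher under all 8 scalings (0.53 to 1.32). Per day, miR-22 gained 1.17 ± 0.36, 0.20 ± 0.11 and 0.48 ± 0.08 on the log2 scale over the 3 steps. miR-378 gained 1.24 ± 0.40, 0.20 ± 0.11 and 0.01 ± 0.09 per day.

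The change of miR-22 minus that of miR-378 does not depend on any constant scaling of the arrays. It was -0.07 ± 0.54 on the log2 scale for E12 versus E11 and 0.00 ± 0.32 for E14 versus E12, both well within the error. For E16 versus E14 it was 0.94 ± 0.24, or 1.91-fold, 3.86 times its error. Quantile normalization, which is not a constant shift, gave 0.75 for that step. Over the whole course, E16 versus E11, the difference between the changes was 0.87 ± 0.50, where the weak signals at E11 set most of the error. No replicate spread stands behind these errors, and the last step was singled out after its values were seen.

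**Figure D2:**
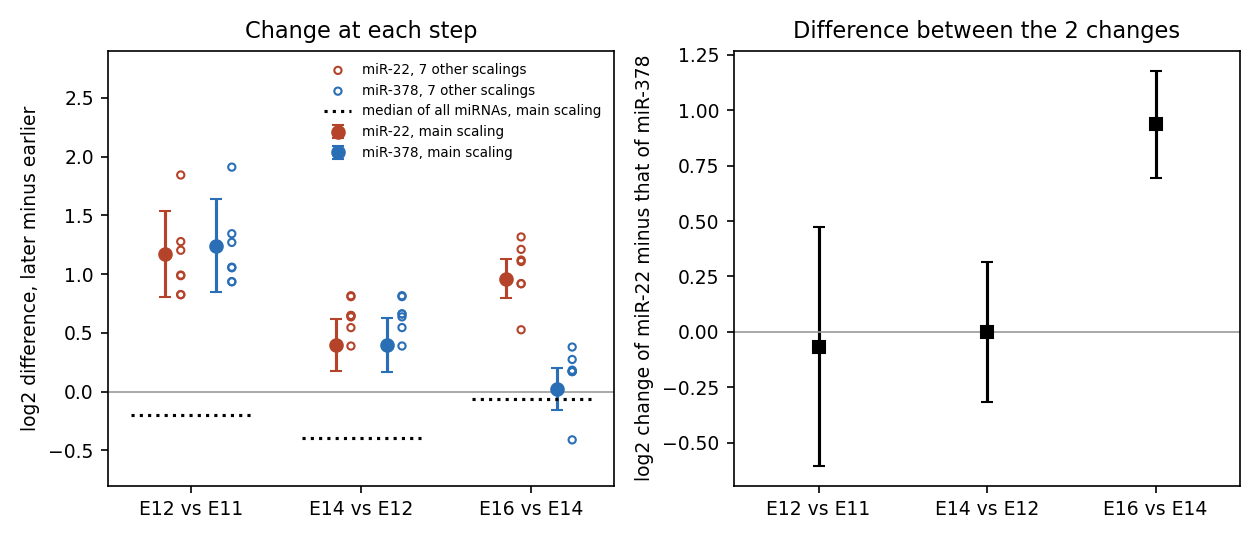
Left, log2 difference (later minus earlier stage) of miR-22 and miR-378 at each step, with the main scaling as filled points with combined errors, 7 other scalings as open points and the median of all microRNAs as dotted lines. Right, the change of miR-22 minus that of miR-378 with its combined error, near 0 in the first steps and 0.94 from E14 to E16.

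The comparison with E11 rests on the array where both microRNAs were weakest. Read from E12 in its place, miR-22 was still 2.56-fold higher at E16 (log2 1.36 ± 0.21, and 1.34 to 2.12 over the 8 scalings), when 6.05% of 215 microRNAs were at least 2-fold higher and 37.2% higher by any amount. miR-378 was 1.34-fold higher (0.42 ± 0.23, and 0.41 to 1.19 over the scalings), and passed 2-fold under 1 of the 8, that without scaling. Under the main scaling the 2-fold difference of miR-378 between the ends of the series therefore needs the E11 value, and that of miR-22 does not.

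Among the 197 microRNAs seen on all arrays, 19 (9.64%) went up in all 3 steps, miR-22 and miR-378 among them by choice. The other names were let-7b, let-7c, let-7d and let-7i of a family known to accumulate as cells differentiate, and miR-200a, miR-200b, miR-200c and miR-429 of the epithelial miR-200 family. They went on with miR-23a, miR-24, miR-27a and miR-27b, the epithelial miR-205, miR-31, miR-30a, miR-365 and miR-425. By the size of the difference between E16 and E11, miR-22 was the 4th of the 19, after miR-31, let-7b and miR-27a, and miR-378 was the 10th. At the first step the pair ranked 7th (miR-22) and 6th (miR-378) of the 19, and at the last 2nd and 19th. 11 of the 19, miR-22 included, were higher at every step by more than the combined error (5.58% of the 197). miR-378 did so at 2 steps. 7 of the 19, again with miR-22, were higher at every step under all 8 scalings, and miR-378 under 7. For E16 versus E12 alone, 5 of the 19 were at least 2-fold higher, namely miR-31, miR-200a, let-7b, miR-27a and miR-22.

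**Figure D3:**
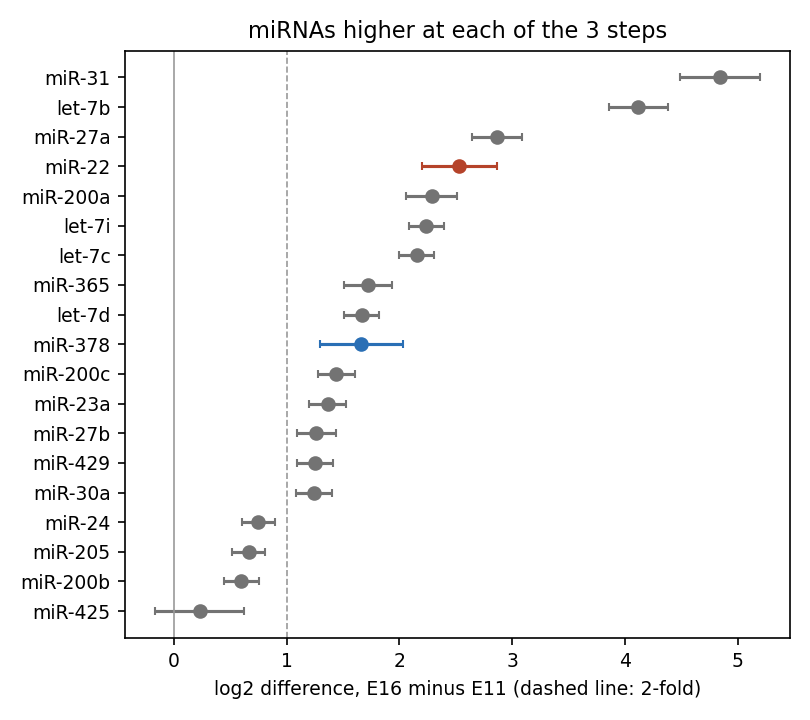
Log2 difference, E16 minus E11, with combined measurement error for the 19 microRNAs that were higher at each step, ordered by size, with the dashed line at 2-fold. miR-22 (2.53) is the 4th and miR-378 (1.66) the 10th.

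The choice by a rise at every step has a thin edge. Ranked by the smallest of its 3 steps, miR-378 was the 1st inside it (0.02), followed by miR-429 (0.03) and miR-425 (0.05). The nearest outside were miR-23b (-0.02), miR-30d (-0.06) and miR-181a (-0.07). All 6 values are smaller than their combined errors, which ran from 0.15 for miR-429 to 0.36 for miR-425. The smallest step of miR-22 was 0.40.

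The profiles most like each member were found among the other 196 microRNAs detected on all arrays, by the root mean square distance of the 4 log2 levels after each was centred on its own mean. Nearest to miR-22 was miR-27a, of a cluster with miR-23a and miR-24, at a distance of 0.15. From E11 to E16 its signals were 42.8, 189, 346 and 841. Next was the epithelial miR-200a, also at 0.15, with signals of 43.3, 117, 219 and 570.4. let-7c (0.22), let-7i (0.28) and miR-152 (0.32), a member of the miR-148 family, followed. For comparison, the median distance of a microRNA from miR-22 was 1.22.

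Nearest to miR-378 were let-7d (0.13), with signals of 155, 536, 817 and 1325 from E11 to E16, and miR-365 (0.13), with 46.1, 159, 248 and 411. miR-23a (0.17), let-7c (0.19) and let-7i (0.22) followed, against a median distance of 0.98. let-7c and let-7i were thus on both lists of 5. Each member was farther from the other than from these, at 0.40, which made miR-378 the 10th nearest to miR-22 and miR-22 the 18th nearest to miR-378. Taken by Pearson correlation, 1 of the 5 names for miR-22 and 3 of the 5 for miR-378 came back, and 2 for each member under quantile normalization. With 4 points a profile, the order is loose. From E14 to E16 miR-378 was at 0.02 under the main scaling, below its neighbours. let-7d, miR-365, miR-23a, let-7c and let-7i were at 0.34, 0.37, 0.16, 0.43 and 0.47.

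**Figure D4:**
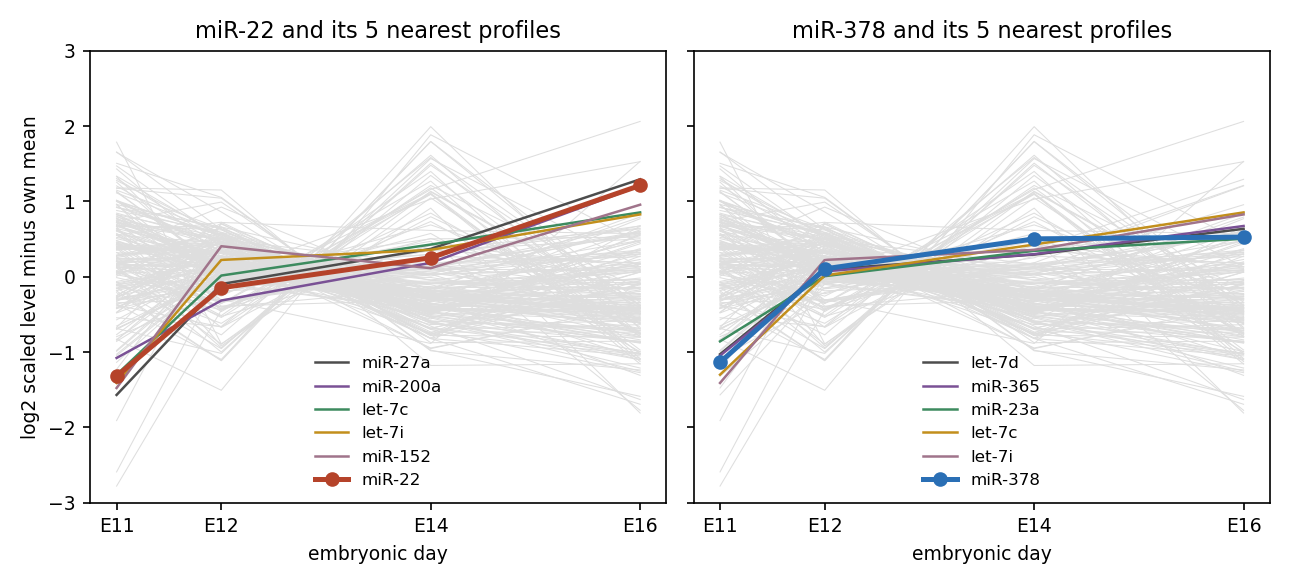
Log2 scaled level minus the microRNA's own mean over the 4 stages, against embryonic day, for miR-22 (left) and miR-378 (right) in bold, their 5 nearest profiles in colour and all 197 microRNAs detected throughout in grey. miR-22 goes on upward from E14 to E16 with miR-27a and miR-200a. Under this main scaling miR-378 is level there, while its 5 neighbours go on upward.

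The mature sequences of these 8 neighbours are set out to show that none has the seed of miR-22 (capitals, bases 2 to 8; RefSeq, GRCm38.p6).
miR-27a: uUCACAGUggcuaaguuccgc
miR-200a: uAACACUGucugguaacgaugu
let-7c: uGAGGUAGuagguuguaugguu
let-7i: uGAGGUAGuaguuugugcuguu
let-7d: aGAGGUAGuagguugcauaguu
miR-152: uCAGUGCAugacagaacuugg
miR-365: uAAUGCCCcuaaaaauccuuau
miR-23a: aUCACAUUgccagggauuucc
The 3 let-7 sequences share a seed, and the remaining 5 each have their own. Near-identical let-7 members can pair with each other's probes. Of the 19 microRNAs higher at every step, 18, all but miR-378, had a mature sequence in the table, and they fell into 12 seed groups. 3 groups held more than 1 name, those of let-7, of miR-200b with miR-200c and miR-429, and of miR-27a with miR-27b. miR-22 stood alone in its group.

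The genes beside the members were looked up by order alone. In the RefSeq table the miRNA gene before Mir22 on chromosome 11 is Mir132, and miR-132 was not detected on any array. miR-212, which is made from the same transcript as miR-132 and is known from neurons, was at -0.92 ± 0.20 on the log2 scale for E16 versus E11 (0.51 on the unscaled signals). The unscaled median of all microRNAs in that comparison was 0.69. The RefSeq gene of miR-378 is Mir378a on chromosome 18, inside the protein-coding gene Ppargc1b. The miRNA gene after it is Mir145a, and miR-145, known from smooth muscle, was not detected on any array. miR-143, listed below with miR-145 among the mesenchymal microRNAs, was detected at every stage. It was at 1.67 ± 0.39 for E16 versus E11 (3.10 on the unscaled signals), from a weak signal of 14.5 at E11. The host transcripts Mir22hg and Ppargc1b are not microRNAs and were not measured.

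Lists of microRNAs known from other cell types were read beside the pair. Of the 8 microRNAs of striated muscle, a tissue in which miR-22 and miR-378 are known to be abundant, 0 were detected on any array. Of all 696 microRNAs, 424 were likewise detected on no array. The part of muscle in the rise of miR-22 and miR-378 was not tested. Among 10 microRNAs linked to fat and energy metabolism, 7 were detected at both E16 and E11. 4 of the 7 (miR-27a, miR-27b, miR-193b and miR-365) were at least 2-fold higher at E16 and 0 lower, with a median of 1.26. Of these, miR-27a, miR-27b and miR-365 were also among the 19 microRNAs higher at every step. The list was chosen with earlier results of these data known, so its count is not separate from the choice of the members. miR-193b, clustered with a copy of miR-365 and known from brown fat, was at 2.48 ± 0.45. miR-103 and miR-107, which lie in pantothenate kinase genes, were at -0.78 ± 0.15 and -0.66 ± 0.16, and turned to 0.66 and 0.77 on the unscaled signals. On those signals the median of all microRNAs was 0.69, so both lay near it. Of all 205 microRNAs, 13.7% were at least 2-fold higher and 37.6% lower in the same comparison.

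Markers of both layers of the labelled tissue, epithelium and mesenchyme, were detected. All 7 epithelial microRNAs were detected at E12, E14 and E16, and 6 at E11, and their deposited signals summed to 1795, 3382, 5363 and 9364 along the 4 stages. 4 of the 6 detected at both ends (miR-200a, miR-200c, miR-203 and miR-429) were at least 2-fold higher at E16 and 0 lower, with a median of 1.35, against 13.7% higher and 37.6% lower among all microRNAs. Here miR-200a, miR-200c and miR-429 were also among the 19 microRNAs higher at every step, so this count too is not separate from the choice of the members. miR-205 was at 0.66 ± 0.15, miR-200b at 0.60 ± 0.16 and miR-200c at 1.44 ± 0.17. Of 8 mesenchymal microRNAs 7 were detected at every stage, with summed signals of 10983, 17094, 11293 and 13020. 1 (miR-143) was at least 2-fold higher and 2 lower (miR-199a-3p and miR-214), against 13.7% and 37.6% of all microRNAs. The 7 are too few for their shares to be read against these, and miR-140 and miR-140* are arms of 1 hairpin. The median of the 7 mesenchymal microRNAs, -0.40, turned to 1.03 on the unscaled signals, where that of all microRNAs was 0.69. The mesenchymal one of highest signal, miR-199a-3p, had -1.25 ± 0.15, or 0.19 on the unscaled signals. The other lower one, miR-214, had -2.51 ± 0.15 and stayed negative on the unscaled signals, at -1.08. These sums are unscaled, on arrays whose 75th percentile differed by 1.44 (log2) between E16 and E11. The epithelial sum was higher at each stage than at the one before, as were the erythroid and leukocyte sums and that of the fat and energy list (1234, 2245, 2666 and 3990). From E11 to E12 the erythroid sum went from 404 to 422, while the percentile rose by 0.67 (log2). From E12 to E14 the fat and energy sum went from 2245 to 2666, while the percentile rose by 0.41. In these steps the 2 sums rose by less than the percentile. The part of these lists in the rise of miR-22 and miR-378 was not tested.

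MicroRNAs of blood and vessels were read in the same way. Of 3 erythroid microRNAs, 1 was detected at E11, E12 and E14 and 2 at E16, and miR-486 on no array. Their signals summed to 404, 422, 665 and 1230 along the stages, nearly all of it miR-451, which was at 0.15 ± 0.15 for E16 versus E11. Of 6 leukocyte microRNAs, 0, 1, 1 and 3 were detected at E11, E12, E14 and E16. Across all 696 microRNAs the counts were 209, 221, 249 and 250. The leukocyte ones were miR-223, joined at E16 by miR-142-3p and miR-146a, with summed signals of 17.6, 32.6 and 165 from E12 on. The myeloid miR-223 had 17.6, 32.6 and 82.4 of these, and miR-150 and miR-155 were detected on no array. Both endothelial probes were detected at every stage, and their summed signals were 239.8, 446, 427 and 791. Under the main scaling, the median of these 2 probes for E16 versus E11 was 0.09. The 2 differed in sign, with 0.31 ± 0.15 for miR-126-3p. The value for miR-126-5p, -0.12 ± 0.45, was within its error. The part of blood cells in the rise of miR-22 and miR-378 was not tested.

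Among 8 neural microRNAs, miR-9, miR-9* and miR-124 were detected on no array. 4 of the 8 (miR-128, miR-137, miR-212 and miR-219) were detected on at least 1 array, against 272 of all 696 microRNAs. The signals of the 4 summed to 93.9, 179.7, 125 and 216 along the stages, and miR-128 was at 0.02 ± 0.44 for E16 versus E11. Of 10 microRNAs that act in the bone-forming lineage, 3 were detected at both E16 and E11 and 6 at E16. For all 696 microRNAs these counts were 205 and 250. 0 of the 3 were at least 2-fold higher and 1 lower, namely miR-335-5p at -1.42 ± 0.18 (0.01 on the unscaled signals), with miR-26a at 0.59 ± 0.15 and miR-218 at 0.06 ± 0.17. With 3 members no share can be read against the 13.7% higher and 37.6% lower of all microRNAs, and their median was 0.06. The unscaled median of all microRNAs was 0.69. miR-29a, miR-29b and miR-29c, not detected at E11, had signals of 59.5, 14.3 and 45.3 at E16.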

How the data were processed

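Each array file holds, per the file headers, a total gene signal, its error and a detection flag for 718 features, 696 of them microRNAs and 22 controls. The deposited signals are intensity on a linear scale, of 1 colour (Cy3, from 100 ng of total RNA per the labels' protocols), and undetected features are written as 0.1. The extraction software and background correction were not given in the sources used here. The authors' series value table also holds intensity, deposited on a linear scale and not centred; quantile normalization of the array signals gave all 929 of its detected values to within 0.1%. The medians of its detected values were 123, 106.2, 83.7 and 83.0 from E11 to E16.

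Controls were left out, except that quantile normalization ran over all 718 features and the controls were dropped afterwards. The log2 signal was taken relative to each array's 75th percentile over the 197 microRNAs detected on all 4 arrays. Differences are later minus earlier, with both stated errors combined in quadrature. The 7 alternative scalings were the percentile over all probes, over the 176 microRNAs with a RefSeq miRNA gene (643 of 696 names matched one), and over the 150 with signals of at least 5 times their error; the median; none; the authors' table; and quantile normalization. Precision is limited by the number of arrays, 1 per stage, and no test was made. The named microRNAs were the members, their other arms, those higher at every step, the 5 nearest profiles, and up to 3 of highest mean level per list. Others named beside a count of a list, at the edge of the rule or as neighbouring genes were chosen after their values were seen. Members and lists were chosen with earlier results of these data known. Python 3.11.15, numpy 2.4.6 and pandas 2.3.3 were used.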

Additional observations from a re-analysis of the deposited data

How the results depend on the processing

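For E16 versus E11, both members kept their direction and stayed at least 2-fold higher under all 7 alternative scalings. Among these, quantile normalization and the authors' table gave the same values to within 0.1%. miR-22 (2.53) moved by more than its error with median scaling (3.05), without scaling (3.97) and with the percentile over signals of at least 5 times their error (2.93). For miR-378 (1.66) the same 3 settings gave 2.18, 3.10 and 2.06. With the E12 array in place of E11, an alternative chosen after seeing the data, miR-22 was at 1.36 and miR-378 at 0.42. The value of miR-378 for E16 versus E14 turned to -0.41 with the percentile over microRNAs that have a RefSeq gene; the cause was not tested. The change of miR-22 minus that of miR-378 was 0.62 with quantile normalization and in the authors' table, against 0.87. Counts depended more on the scaling. The 19 of 197 microRNAs higher at every step became 31 with median scaling and 59 without scaling. The 28 of 205 at least 2-fold higher became 44 and 92. The mesenchymal median turned to 0.11 with median scaling, 0.15 with quantile normalization and in the authors' table, and 1.03 without scaling. Without scaling the median of all microRNAs was 0.69. The bone-forming median turned to -0.15 with the percentile over microRNAs that have a RefSeq gene. The undetected miR-22* and miR-378* gave no value under any setting. No paired analysis was possible because each stage has 1 array. The E11 signals, with errors above 20% for both members, limit every comparison made with that stage.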
